A study of Mus musculus with 22 samples.

Results

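Tex19.1, Tex101, Slc25a31, Taf7l, Fkbp6 and Brdt are mouse germline genes whose promoters are known to be controlled by DNA methylation. They were taken by symbol from the count tables. All 6 were present among the 37991 genes of the table of the Tet1 cross and among the 37620 genes of the table of the MF1 cross, and all 6 passed the filter on low counts. The study sequenced polyA RNA from primordial germ cells (PGCs), embryonic cells that will give rise to the gametes, after sorting. Embryos of the Tet1 cross came from parents that were both Tet1-het GOF18∆PE-EGFP, and 2 libraries were made for each of 10 groups: Tet1-WT and Tet1-KO, each at E10.5, in females and males at E12.5, and in females and males at E14.5. The sex of the E10.5 embryos was not given. A further 2 libraries came from wild-type E10.5 PGCs of an MF1 x GOF18∆PE-EGFP cross. All embryos therefore came from a cross that carried the EGFP transgene, a Pou5f1 reporter that is active in germ cells, and the controls of the Tet1 cross had heterozygous parents. Nothing in the labels says how the embryo pools of 2 libraries were related, so p-values measure the spread between these libraries only.

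In these cells DNA methylation is removed from most of the genome while they enter and settle in the gonad. A small class of germline genes has CpG-rich promoters that are methylated in other cell types, and methylation of these promoters is enough to keep them silent. TET1 oxidises 5-methylcytosine to 5-hydroxymethylcytosine and is expressed in PGCs. The genes described here act at different steps of germ cell life. Tex19.1 is needed to hold retrotransposons in check and for meiosis in males. Slc25a31, also called Ant4, encodes the ADP/ATP carrier of germ cell mitochondria. Taf7l is an X-linked relative of the general transcription factor subunit Taf7. Brdt encodes a germ cell bromodomain protein that binds acetylated histones. Fkbp6 encodes an immunophilin of the piRNA pathway and of meiotic chromosome cores. Tex101 encodes a glycoprotein anchored to the germ cell surface.

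The promoter sequences of 4 of the genes are shown because a CpG-rich promoter is a trait of this class, though not of it alone. These 4 had the smallest p for the rise between E10.5 and E12.5 described below. Each is the 250 bases before the gene's start in the RefSeq promoter table for GRCm38.p6, 5′ to 3′ on the gene's strand, with every CpG in capitals. The count tables were made on mm9, so these positions are of another build than the counts. Tex19.1 lies on the plus strand at chr11:121145893-121146142, Slc25a31 on the plus strand at chr3:40708621-40708870, Fkbp6 on the minus strand at chr5:135350045-135350294 (the first of 2 listed starts) and Tex101 on the minus strand at chr7:24672051-24672300.
Tex19.1: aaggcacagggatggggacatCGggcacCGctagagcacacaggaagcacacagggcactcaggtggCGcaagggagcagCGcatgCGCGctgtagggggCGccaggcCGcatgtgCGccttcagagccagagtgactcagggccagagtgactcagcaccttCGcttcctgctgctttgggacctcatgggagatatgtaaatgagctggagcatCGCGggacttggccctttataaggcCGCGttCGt
Slc25a31: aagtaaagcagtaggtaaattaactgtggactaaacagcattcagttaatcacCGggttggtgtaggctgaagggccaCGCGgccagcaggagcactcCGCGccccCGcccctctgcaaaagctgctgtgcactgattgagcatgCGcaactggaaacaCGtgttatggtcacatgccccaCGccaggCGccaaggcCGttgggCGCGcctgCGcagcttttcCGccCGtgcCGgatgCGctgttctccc
Fkbp6: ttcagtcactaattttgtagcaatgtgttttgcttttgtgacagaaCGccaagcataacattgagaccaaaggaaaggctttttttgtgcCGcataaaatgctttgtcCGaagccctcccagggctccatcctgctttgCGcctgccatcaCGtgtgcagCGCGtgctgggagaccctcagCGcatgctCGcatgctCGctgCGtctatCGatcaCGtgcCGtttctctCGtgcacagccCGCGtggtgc
Tex101: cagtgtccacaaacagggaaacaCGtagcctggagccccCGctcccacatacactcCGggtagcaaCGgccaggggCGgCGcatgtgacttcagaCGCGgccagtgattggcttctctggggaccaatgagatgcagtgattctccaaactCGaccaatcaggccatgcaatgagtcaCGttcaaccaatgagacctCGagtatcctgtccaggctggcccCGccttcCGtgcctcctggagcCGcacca

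The 4 windows held 15, 18, 17 and 14 CpGs in that order. Those of Taf7l and Brdt, which are not printed, held 14 and 16. The median over the 32841 promoters of the table was 6, and 70.6% to 78.3% of promoters held fewer CpGs than these windows. The ratio of observed to expected CpG ran from 0.639 in Tex101 to 1.13 in Taf7l, against a median of 0.374. CACGTG, the E-box letters that MYC-family proteins such as MAX and MGA recognise, was searched on both strands. It occurred in the windows of 4 of the 6 genes (Slc25a31, Taf7l, Fkbp6 and Brdt), and in 6.02% of all promoter windows of the same length. TCCCGC, the core of E2F sites, was also searched on both strands. It occurred in the window of Tex19.1 alone among the 6, where CACGTG did not occur, and in 16.9% of all promoters. These are matches of letters, not measured binding, and no methylation was measured in the data used here.

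Each library of the Tet1 cross held RNA pooled from 2 to 6 embryos, or 1000 to 8000 sorted cells, and each MF1 library held 600 to 1000 cells. Depth was 9616436 to 25899505 counts per library in the Tet1 cross, and 59415040 and 66924911 counts in the MF1 libraries. Genes detected ranged from 15147 in MF1 replicate 1 to 20012 in MF1 replicate 2, with every library of the Tet1 cross between. Levels below are in CPM, a gene's counts relative to its library total after TMM scaling of that total, so that libraries of different depth can be set side by side. Tet1 itself was lower in both Tet1-KO libraries than in both Tet1-WT libraries in each of the 4 later groups. At E10.5 the libraries overlapped: Tet1 was at 133.9 and 76.8 CPM in Tet1-WT replicates 1 and 2, and at 44.5 and 102 CPM in replicates 1 and 2 labelled Tet1-KO. In every direction drawn at E10.5 the Tet1-KO group therefore means the libraries labelled so. Germ cell markers (Dppa3, Pou5f1, Kit, Tfap2c, Prdm1, Nanos3, Dnd1 and Ifitm3) were detected, all 8 of 8, in every library. Some markers of gonadal mesenchyme and supporting cells, 16 genes led by collagens, were detected in every library too, but not always each of them. Of the 16, 9 were at 0 counts in E14.5 female Tet1-KO library b and 8 in MF1 replicate 1. The 16 summed to 1730 and 1980 CPM in E10.5 Tet1-WT and to 14 to 60.8 CPM in all E14.5 libraries. In bulk RNA, fewer cells with a transcript and less of it per cell cannot be told apart.

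Between E10.5 and E12.5, most of the 6 genes went from low or barely detected to clearly expressed in Tet1-WT germ cells. In females 5 of 6 rose (8.81% of all genes tested rose), and in males 5 of 6 rose (6.40% of all genes). The exception in both sexes was Taf7l. A gene counted as risen or fallen at a Benjamini-Hochberg adjusted p under 0.05 in edgeR's quasi-likelihood test, and every adjusted p below comes from that test unless another is named. Shares of all genes are given for these edgeR calls only. Genes with libraries apart, at an unadjusted p under 0.05 or called by DESeq2 have no such share beside them, so their numbers show no excess. Both comparisons share the E10.5 Tet1-WT libraries.

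Tex19.1 was at 37.1 and 42.7 CPM in E10.5 Tet1-WT, 419 and 420 CPM in E12.5 females, and 371 and 452 CPM in E12.5 males. The 2 stages did not overlap in any library. The log2 change was 3.39 in females (standard error (SE) 0.19, adjusted p = 4.33e-08) and 3.37 in males (adjusted p = 6.45e-08), or about 10.3-fold in the latter. Fkbp6 was at 27.4 and 44.9 CPM in E10.5 Tet1-WT, 514 and 658 CPM in E12.5 females, and 314 and 376 CPM in E12.5 males, all E12.5 libraries far above all E10.5 ones. It rose 16.2-fold in females (adjusted p = 1.18e-07) and 9.53-fold in males (adjusted p = 9.87e-07). These 2 genes were already the most abundant of the 6 at E10.5. Per length of transcript, as RPKM (CPM divided by kilobases of exon), Tex19.1 was at 21.3 ± 2.10 (SD, n = 2) and Fkbp6 at 20.6 ± 7.06 in E10.5 Tet1-WT, with overlapping libraries, while the other four lay at 0.243 (Brdt) to 2.65 (Slc25a31) RPKM.

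Slc25a31, the mitochondrial carrier, had the largest fold of the 6 in both sexes. It was at 7.34 and 3.94 CPM in E10.5 Tet1-WT, 185 and 92.3 CPM in E12.5 females, and 109 and 111 CPM in E12.5 males. The rise was 24.5-fold in females (log2 change 4.62, SE 0.44, adjusted p = 9.1e-06) and 19.5-fold in males (adjusted p = 2.07e-05). Tex101 was at 3.95 and 0.918 CPM in E10.5 Tet1-WT, 49.2 and 26.8 CPM in E12.5 females, and 16.1 and 15.6 CPM in E12.5 males. It rose 15.6-fold in females (adjusted p = 0.000907) and 6.53-fold in males (adjusted p = 0.0147). The male call was lost without E10.5 Tet1-WT replicate 2 (adjusted p = 0.152) or E12.5 male Tet1-WT replicate 2 (adjusted p = 0.0623).

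Brdt and Taf7l stayed low at E12.5. Brdt was at 2.43 and 0.054 CPM in E10.5 Tet1-WT, 11 and 7.78 CPM in E12.5 females, and 9.86 and 8.4 CPM in E12.5 males. It rose 7.55-fold in females (adjusted p = 0.0203) and 7.37-fold in males (adjusted p = 0.0279), from a single E10.5 library with more than a trace. These calls did not hold without E10.5 Tet1-WT replicate 2 (adjusted p = 0.0557 and 0.0803) or without E12.5 Tet1-WT replicate 1 of the sex in question (adjusted p = 0.0726 in females, 0.0816 in males), and in males also without replicate 2 of E12.5 Tet1-WT (adjusted p = 0.0887), nor in fits of the compared groups alone (adjusted p = 0.174 and 0.155). Taf7l was at 0.452 and 2.22 CPM in E10.5 Tet1-WT, 6.6 and 2.68 CPM in E12.5 females, and 2.36 and 1.13 CPM in E12.5 males. Its log2 change was 1.77 in females (adjusted p = 0.0599) and 0.38 in males (adjusted p = 0.798), and the male libraries overlapped those of E10.5.

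The mesenchyme marker sum in these libraries was 1730 and 1980 CPM at E10.5, 793 and 1150 CPM in E12.5 females, and 1890 and 1220 CPM in E12.5 males. Germ cell markers summed to 1760 and 1300 CPM at E10.5, 3740 and 4850 CPM in E12.5 females and 3330 and 3800 CPM in E12.5 males, and 5 of 8 rose in each sex with median log2 changes of 1.06 and 1.22; the part of this rise in the result was not tested. With the log2 of the mesenchyme sum as a term of the fit, Tex19.1, Tex101, Slc25a31 and Fkbp6 were called higher in both sexes with log2 changes of 2.41 to 4.10, Brdt was called in males (adjusted p = 0.0353), and Brdt in females was not (adjusted p = 0.257).

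**Figure D1:**
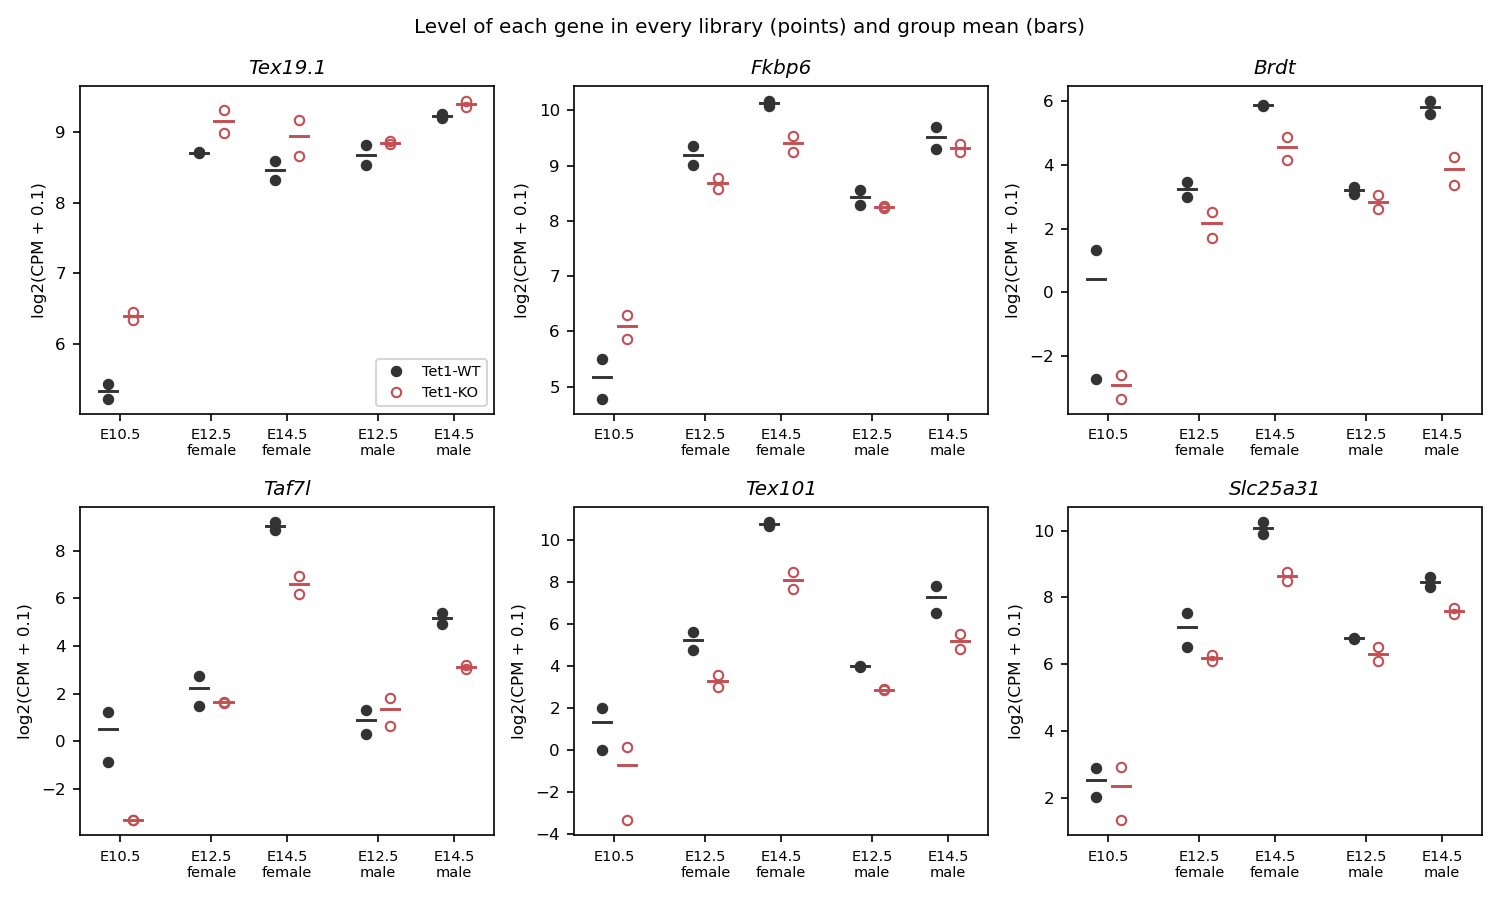
Level of each of the 6 genes in every library of the Tet1 cross, on the y axis as log2(CPM + 0.1) with a scale of its own for each gene, by stage and sex on the x axis. Points are single libraries (filled for Tet1-WT, open for Tet1-KO) and short lines mark the group mean of 2 libraries; Tex19.1 climbs from 37.1 and 42.7 CPM at E10.5 to 419 and 420 CPM in Tet1-WT females by E12.5, while Taf7l reaches 467 and 586 CPM in E14.5 Tet1-WT females.

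Most of the 6 genes rose again from E12.5 to E14.5. In Tet1-WT females 5 of 6 rose (11.3% of all genes rose), all but Tex19.1, and in Tet1-WT males 6 of 6 rose (4.92% of all genes rose). The difference between the sexes in this change was not tested. Female germ cells enter meiosis at about this age while male germ cells stop dividing. Taf7l rose 114-fold in females, to 586 and 467 CPM (log2 change 6.83, SE 0.61, adjusted p = 4.44e-06), and 20.5-fold in males, to 30.2 and 41.8 CPM (adjusted p = 0.000288). Tex101 rose 45.2-fold in females, to 1810 and 1622 CPM (SE of the log2 change 0.64, adjusted p = 2.09e-05), and 9.78-fold in males, to 90.6 and 219 CPM (adjusted p = 0.00205). No E14.5 library of either gene overlapped an E12.5 library of the same sex.

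Slc25a31 rose 7.82-fold in females, to 1216 and 949 CPM (adjusted p = 5.91e-05), and 3.22-fold in males, to 316 and 391 CPM (adjusted p = 0.0089). Brdt rose 6.18-fold in females, to 58.3 and 57.6 CPM (adjusted p = 0.0131), and 6.12-fold in males, to 48.1 and 63.7 CPM (adjusted p = 0.0264). Fkbp6 rose 1.91-fold in females, to 1154 and 1087 CPM (adjusted p = 0.00527), and 2.13-fold in males, to 629 and 837 CPM (adjusted p = 0.00515). Tex19.1 had levelled off: it was at 321 and 386 CPM in E14.5 females, a log2 change of -0.25 (adjusted p = 0.322), and rose 1.46-fold in males, to 591 and 611 CPM (adjusted p = 0.0487). Leaving out any 1 of the 4 libraries ended the male Tex19.1 call (adjusted p 0.0588 to 0.307).

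Several of these calls rested on single libraries. Fkbp6 lost its female call without E12.5 Tet1-WT replicate 1 (adjusted p = 0.0588). Fkbp6 and Slc25a31 lost their male calls without E12.5 Tet1-WT replicate 1 (adjusted p = 0.0592 and 0.07) or E14.5 Tet1-WT replicate 2 (adjusted p = 0.0585 and 0.0572). Brdt lost its female call without either E12.5 Tet1-WT library or E14.5 replicate 1 (adjusted p 0.0508 to 0.113), and its male call without either E12.5 Tet1-WT library or E14.5 replicate 2 (adjusted p 0.123 to 0.138). The Taf7l and Tex101 calls in both sexes, and the female Slc25a31 call, held without each library in turn.

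Between these stages the mesenchyme marker sum fell from 793 and 1150 to 40.2 and 33 CPM in Tet1-WT females, and from 1890 and 1220 to 46.9 and 34.3 CPM in males, so that its own change and the stage cannot be told apart. With the log2 sum as a term no member was called between these stages in either sex. The log2 changes of Taf7l were then 6.79 and 4.31 (adjusted p = 0.416 and 0.833), and those of Tex101 were -1 and -4.19 (adjusted p = 0.935 and 0.793). The germ cell markers, by contrast with the 6 genes, were lower at E14.5 than at E12.5 in females for 8 of 8, and in males 3 of 8 were higher and 2 of 8 lower.

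**Figure D2:**
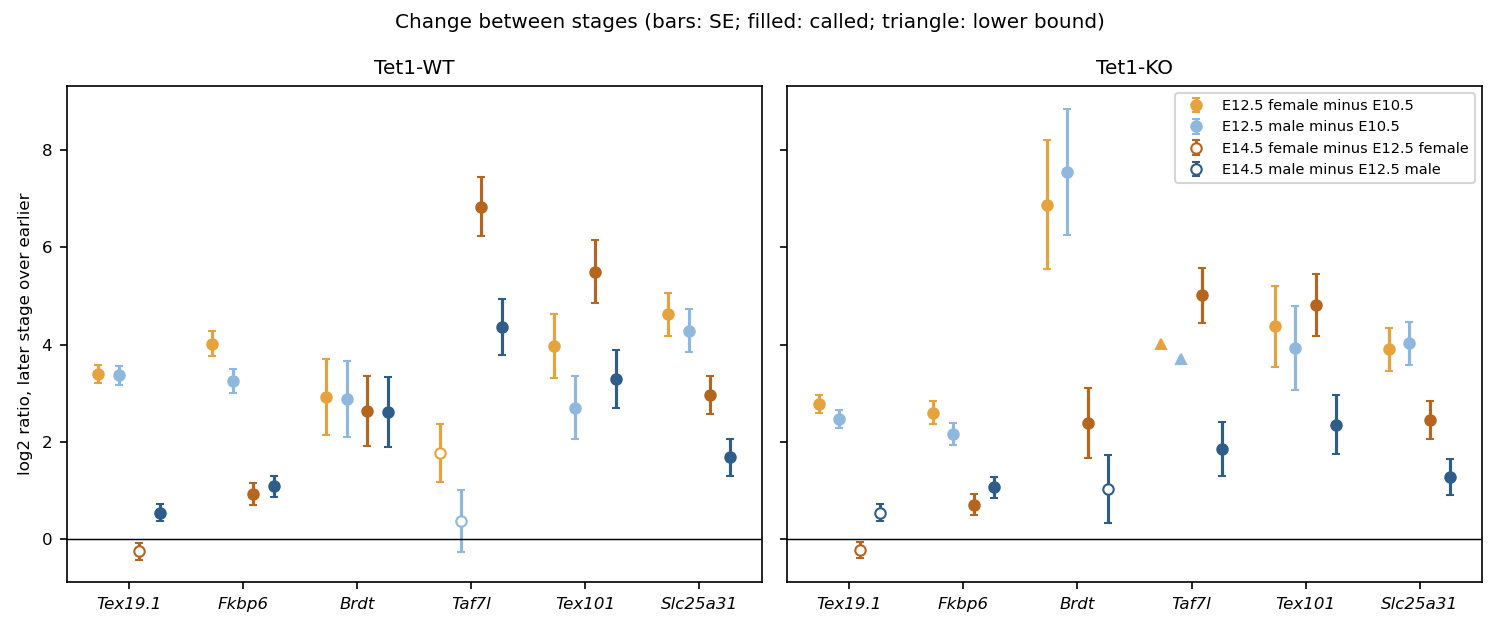
Fitted log2 ratio of the later over the earlier stage for each of the 6 genes, in Tet1-WT (left) and Tet1-KO (right), coloured by sex and step, with lines for the SE, filled symbols for calls at an adjusted p under 0.05 and triangles for the lower bounds of Taf7l against its 0 counts. In Tet1-WT females Taf7l stands at 1.77 for the first step and 6.83 for the second, whereas Tex19.1 stands at 3.39 and -0.25; the high Brdt points in Tet1-KO rest on 1 count at E10.5.

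At E14.5 the sexes had parted in Tet1-WT germ cells. Of the 6 genes 4 were lower in males than in females (14.1% of all genes were), Tex19.1 was higher, and Brdt showed no call. Taf7l was 14.6-fold lower in males (log2 change -3.87, SE 0.52, adjusted p = 6.63e-05) and Tex101 11.1-fold lower (log2 change -3.47, SE 0.58, adjusted p = 0.000352). Slc25a31 was 3.06-fold lower (adjusted p = 0.00441) and Fkbp6 1.53-fold lower (adjusted p = 0.0492). Tex19.1 stood 1.70-fold higher in males (adjusted p = 0.00346). For Brdt the log2 difference was -0.05 with an SE of 0.67 (adjusted p = 0.99), so that its error allows a difference of either sign. The Fkbp6 call did not hold without either female library (adjusted p = 0.199 and 0.105) or male replicate 1 (adjusted p = 0.299), and the Tex19.1 call did not hold without female replicate 1 (adjusted p = 0.0523).

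Per length, the order of the 6 in E14.5 Tet1-WT females was Tex101 at 1040 RPKM, Fkbp6 at 639, Slc25a31 at 508, Taf7l at 235, Tex19.1 at 189 and Brdt at 11.3, and no neighbours in this order overlapped. In E14.5 Tet1-WT males it was Fkbp6 at 418 RPKM, Tex19.1 at 321, Slc25a31 at 166, Tex101 at 93.5, Taf7l at 16 and Brdt at 10.9, again with no overlap between neighbours.

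In Tet1-KO germ cells at E14.5, 2 of the 6 genes were lower in males (7.43% of all genes were): Tex101 7.47-fold (adjusted p = 0.0025) and Taf7l 11.2-fold (adjusted p = 0.000364). For Slc25a31 the log2 difference was -1.04 (adjusted p = 0.0622). At E12.5 edgeR called 0 of the 6 in Tet1-WT (0.575% of all genes were called), with 3 at an unadjusted p under 0.05 and 1, Fkbp6, by DESeq2. In E12.5 Tet1-KO it called 0 of the 6 (0.398% of all genes), with 0 at an unadjusted p under 0.05 and 0 by DESeq2.

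The comparison of Tet1-KO with Tet1-WT addresses how these methylation-controlled genes are expressed when Tet1 is disrupted, with the limit that Tet1 counts did not separate the genotypes at E10.5. At E10.5, before the rise, Tex19.1 and Fkbp6 were higher in the libraries labelled Tet1-KO. Taf7l and Brdt, at counts near the limit of detection, were lower in them. At E14.5, Tex101, Taf7l and Slc25a31 were lower in Tet1-KO females. With edgeR and the filter on low counts no member was called at E12.5 or in E14.5 males. DESeq2 called Taf7l in E14.5 males. Without the filter edgeR called Tex101, Taf7l, Brdt and Slc25a31 in E14.5 males (adjusted p 2.73e-17 to 0.00377), Tex101 and Slc25a31 in E12.5 females (adjusted p = 2.03e-15 and 0.000816) and Tex101 in E12.5 males (adjusted p = 0.000123). The log2 changes hardly moved: for Tex101 in E14.5 males it was -2.07 with the filter and -2.09 without. The estimated error alone changed, so these added calls are no firmer evidence of a difference. Over the 6 genes the median log2 change was -1.28 at E10.5, -0.77 and -0.27 in females and males at E12.5, and -1.38 and -1.41 in females and males at E14.5, beside -0.03 to 0.02 over all genes tested. The E10.5 median joins 2 genes called higher with 2 called lower at counts near the limit of detection, so it describes no common fall.

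In E14.5 females 3 of 6 genes fell with Tet1-KO (3.29% of all genes tested fell). Tex101 was at 1810 and 1622 CPM in the Tet1-WT libraries and 350 and 201 CPM in the Tet1-KO libraries, 6.23-fold lower (log2 change -2.64, SE 0.56, adjusted p = 0.0122). Taf7l was at 586 and 467 CPM in the Tet1-WT libraries and 122 and 71.7 CPM in the Tet1-KO libraries, 5.45-fold lower (SE of the log2 change 0.49, adjusted p = 0.00952). Slc25a31 was at 1216 and 949 CPM in the Tet1-WT libraries and 435 and 363 CPM in the Tet1-KO libraries, 2.71-fold lower (log2 change -1.44, SE 0.37, adjusted p = 0.031). For all 3 genes both Tet1-KO libraries lay below both Tet1-WT libraries.

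The levels in E14.5 Tet1-KO females were still well above those of E12.5: the 350 and 201 CPM of Tex101 stood against 11.6 and 7.82 CPM in E12.5 Tet1-KO females. Fkbp6 was at 1154 and 1087 CPM in E14.5 Tet1-WT females and 745 and 609 CPM in Tet1-KO, without a call (log2 change -0.73, adjusted p = 0.0625; DESeq2 called it, adjusted p = 0.00974). Brdt was at 58.3 and 57.6 CPM in the Tet1-WT libraries and 29.1 and 17.6 CPM in the Tet1-KO libraries (log2 change -1.31, adjusted p = 0.293). Tex19.1 went the other way, with 321 and 386 CPM in the Tet1-WT libraries and 407 and 581 CPM in the Tet1-KO libraries (log2 change 0.48, adjusted p = 0.113; DESeq2 adjusted p = 0.0458). For these 3 genes too the libraries of the 2 genotypes did not overlap. The share of all genes with libraries apart in this way is not given.

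The 3 calls in E14.5 females were sensitive to single libraries. Tex101 and Taf7l lost theirs without Tet1-WT replicate 1 (adjusted p = 0.0983 and 0.106) or Tet1-KO library b (adjusted p = 0.166 and 0.13), and Slc25a31 without any 1 of the 4 (adjusted p 0.0549 to 0.269). The mesenchyme marker sum was low in these libraries, 40.2 and 33 CPM in the Tet1-WT libraries and 14 and 17.6 CPM in the Tet1-KO libraries. With its log2 as a term Tex101 (adjusted p = 0.0145) and Slc25a31 (adjusted p = 0.0235) were called and Taf7l was not (adjusted p = 0.196), with log2 changes of -4.41, -2.38 and -2.46. The germ cell markers summed to 836 and 1340 CPM in the Tet1-WT libraries and 2360 and 3030 CPM in the Tet1-KO libraries. Of the 8 germ cell markers 6 were higher in Tet1-KO. All 8 fell from E12.5 to E14.5 in Tet1-WT females (median log2 change -2.03), so their sum is no measure of germ cell share alone. The part of this difference in the result was not tested.

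In E14.5 males Tex101, Taf7l, Brdt and Slc25a31 had lower values in both Tet1-KO libraries, but 0 of 6 were called by edgeR. Of all genes 0.102% were called, a share that covers edgeR calls only. Among the 6 genes 4 had an unadjusted p under 0.05, and DESeq2 called 1, Taf7l (adjusted p = 0.00561). Tex101 was at 90.6 and 219 CPM in the Tet1-WT libraries and 27.7 and 46.1 CPM in the Tet1-KO libraries (log2 change -2.07, SE 0.56, adjusted p = 0.164). Taf7l was at 30.2 and 41.8 CPM in the Tet1-WT libraries and 8.19 and 8.98 CPM in the Tet1-KO libraries (log2 change -2.07, SE 0.50, adjusted p = 0.141). Brdt was at 48.1 and 63.7 CPM in the Tet1-WT libraries and 10.1 and 18.9 CPM in the Tet1-KO libraries (log2 change -1.95, SE 0.70, adjusted p = 0.314).

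The libraries of these 3 genes were apart by genotype, with wide spread between the Tet1-WT libraries of Tex101. Slc25a31 was at 316 and 391 CPM in the Tet1-WT libraries and 181 and 206 CPM in the Tet1-KO libraries (log2 change -0.87, adjusted p = 0.422). Fkbp6 overlapped, with 629 and 837 CPM against 607 and 673 CPM (log2 change -0.20, adjusted p = 0.85), and Tex19.1 was at 591 and 611 CPM against 698 and 659 CPM (log2 change 0.17, adjusted p = 0.815). The difference between the sexes in the Tet1-KO effect at E14.5 was tested for each gene, and 0 of 6 were called (1.43% of all genes were), with 0 at an unadjusted p under 0.05 and 0 called by DESeq2. It was 0.57 with an SE of 0.75 for Tex101, 0.38 with an SE of 0.67 for Taf7l and 0.57 with an SE of 0.52 for Slc25a31 on the log2 scale, males minus females. A female call without a male one is therefore not shown to be a sex difference, nor do these errors show that the effects were alike.

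**Figure D3:**
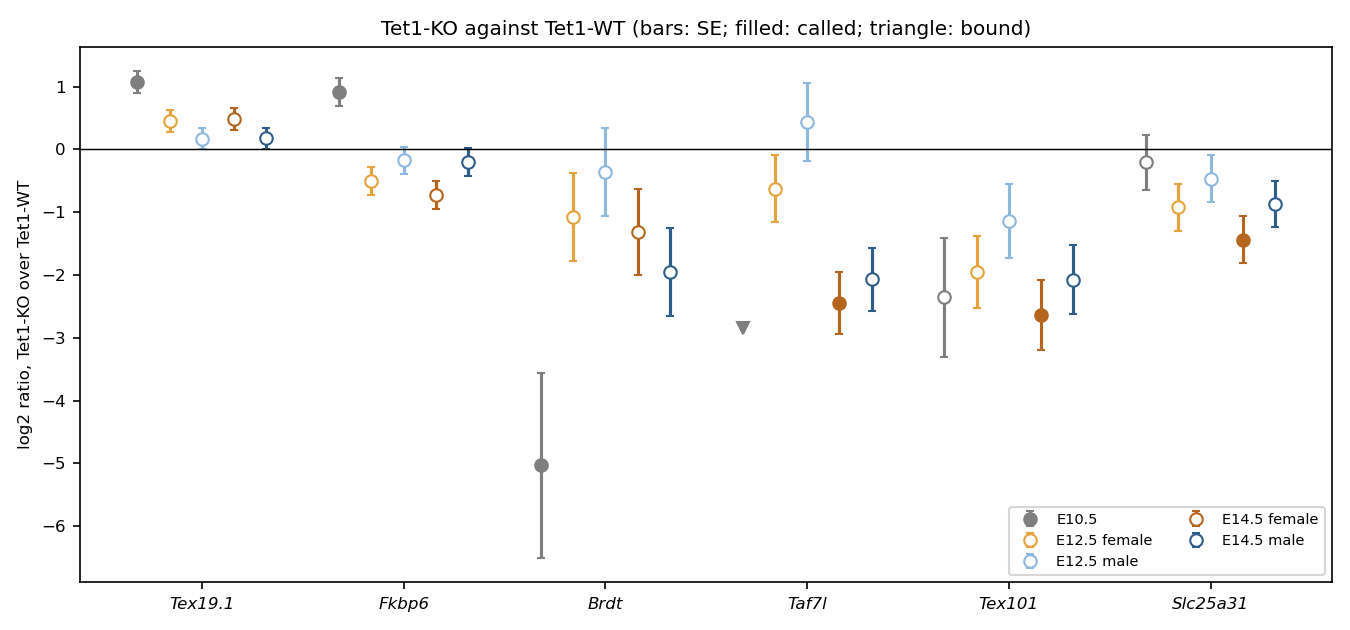
Fitted log2 ratio of Tet1-KO over Tet1-WT for each of the 6 genes at each stage and sex, with lines for the SE, filled symbols for calls at an adjusted p under 0.05 and a triangle for the bound of Taf7l at E10.5. Tex101, Taf7l and Slc25a31 lie below 0 in both sexes at E14.5 and are filled in females, at -2.64, -2.44 and -1.44, Tex19.1 lies above 0 in all 5 comparisons, and the Brdt point at E10.5 rests on 1 count in Tet1-KO.

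At E12.5, edgeR called 0 of the 6 genes in females (1.29% of all genes were called), with 4 at an unadjusted p under 0.05 and 0 by DESeq2. In E12.5 males it called 0 of 6 (1.06% of all genes), with 0 at an unadjusted p under 0.05 and 0 by DESeq2. Tex101 in females was at 49.2 and 26.8 CPM in the Tet1-WT libraries and 11.6 and 7.82 CPM in the Tet1-KO libraries (log2 change -1.95, SE 0.57, adjusted p = 0.124, or 0.0304 in a fit of these 4 libraries alone), and in males at 16.1 and 15.6 CPM against 7.32 and 7.07 CPM (log2 change -1.14, adjusted p = 0.396). Slc25a31 in females was at 185 and 92.3 CPM in the Tet1-WT libraries and 78 and 68.2 CPM in the Tet1-KO libraries (log2 change -0.92, adjusted p = 0.289), and in males at 109 and 111 CPM against 90.7 and 68.6 CPM (log2 change -0.46, adjusted p = 0.611). In both sexes the Tet1-KO libraries of these 2 genes lay below the Tet1-WT ones.

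Fkbp6 in females was at 514 and 658 CPM in the Tet1-WT libraries and 384 and 441 CPM in the Tet1-KO libraries (log2 change -0.51, adjusted p = 0.335), and in males at 314 and 376 CPM against 309 and 301 CPM. Brdt in females was at 11 and 7.78 CPM in the Tet1-WT libraries and 5.63 and 3.17 CPM in the Tet1-KO libraries (log2 change -1.08, adjusted p = 0.583), and in males at 9.86 and 8.4 CPM against 5.98 and 8.2 CPM. Taf7l was at 3.02 and 2.96 CPM in female and 3.37 and 1.47 CPM in male Tet1-KO libraries, within or overlapping the Tet1-WT range in both sexes. Tex19.1 was at 509 and 640 CPM in female and 456 and 469 CPM in male Tet1-KO libraries, above all Tet1-WT libraries of the same sex. Beside these values the mesenchyme marker sum was 793 and 1150 CPM in E12.5 Tet1-WT females but 47.8 and 50 CPM in Tet1-KO females. It was 1890 and 1220 CPM in Tet1-WT males but 267 and 175 CPM in Tet1-KO males. With its log2 as a term 0 of 6 genes were called in either sex (adjusted p 0.7 to 1). The log2 changes of Tex101, Slc25a31, Fkbp6 and Brdt were then larger in size in both sexes, at -7.89, -4.12, -1.4 and -5.54 in females. That of Tex19.1 was smaller in both sexes and that of Taf7l hardly moved. The marker sum differed with genotype in these libraries, so this fit cannot tell the 2 apart.

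At E10.5, 2 of the 6 genes were higher (4.10% of all genes were) and 2 lower (4.70% of all genes were) in the libraries labelled Tet1-KO. Tex19.1 was at 37.1 and 42.7 CPM in the Tet1-WT libraries and 86.9 and 80.4 CPM in the Tet1-KO libraries, 2.10-fold higher (log2 change 1.07, SE 0.18, adjusted p = 0.00274). Fkbp6 was at 27.4 and 44.9 CPM in the Tet1-WT libraries and 78.1 and 58 CPM in the Tet1-KO libraries, 1.88-fold higher (log2 change 0.91, SE 0.23, adjusted p = 0.023). The Tet1-KO libraries of both genes lay above the Tet1-WT ones and far below any E12.5 library.

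Taf7l and Brdt were near the limit of detection. They passed the filter on low counts only through the later groups of the joint fit. In a fit of the E10.5 libraries of the Tet1 cross alone neither passed it. Fewer genes were detected at E10.5 in the libraries labelled Tet1-KO (15535 and 15695) than in Tet1-WT (17567 and 17676). The part of this difference in the lower values of Taf7l and Brdt was not tested. Taf7l was at 0.452 and 2.22 CPM in Tet1-WT and had 0 counts in both libraries labelled Tet1-KO. With 3 counts allowed in each of the latter, the Tet1-WT mean was 7.21-fold higher (adjusted p = 0.0171 in the joint fit). Replicate 1 of Tet1-WT, with 8 counts, was itself close to that allowance. Brdt had 43 and 1 counts in Tet1-WT and 1 and 0 counts in Tet1-KO, 39.9-fold lower over the summed counts (95% interval 6.8 to 1610, counting error only; adjusted p = 0.0371). Its libraries overlapped, since 1 library of each genotype had a single count. Tex101, at 3.95 and 0.918 CPM in the Tet1-WT libraries and 1.03 and 0 CPM in the Tet1-KO libraries, was not called (log2 change -2.36, adjusted p = 0.13), nor was Slc25a31, at 7.34 and 3.94 CPM against 7.54 and 2.41 CPM (log2 change -0.21, adjusted p = 0.84).

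Of the E10.5 calls, that of Tex19.1 held without each library in turn (adjusted p 0.00479 to 0.0286) but not in a fit of these 4 libraries alone (adjusted p = 0.173). Fkbp6 was not called when replicate 1 of either genotype was left out (adjusted p = 0.184 for Tet1-WT, 0.12 for Tet1-KO), nor in a fit of the 4 libraries alone (adjusted p = 0.259). Brdt was not called when Tet1-WT replicate 1 was left out (adjusted p = 0.925), nor when replicate 1 or 2 labelled Tet1-KO was (adjusted p = 0.0855 and 0.145). Taf7l was not called when Tet1-WT replicate 2 was left out (adjusted p = 0.14), nor when replicate 1 or 2 labelled Tet1-KO was (adjusted p = 0.0584 and 0.0572). The marker sums differed strongly at this stage. Mesenchyme markers summed to 1730 and 1980 CPM in Tet1-WT against 392 and 883 CPM in those labelled Tet1-KO, germ cell markers to 1760 and 1300 CPM against 5880 and 3680 CPM, and 7 of 8 germ cell markers were higher in Tet1-KO. Endothelial and blood markers summed to 224 and 1810 CPM against 1290 and 190 CPM. With the log2 mesenchyme sum as a term, 0 of the 4 calls remained (Tex19.1 log2 change 0.97, adjusted p = 0.19; Fkbp6 0.55, adjusted p = 0.545; Taf7l -7.55, adjusted p = 0.204; Brdt -6.77, adjusted p = 0.155). The log2 changes of Taf7l and Brdt without that term were -7.53 and -5.03, so theirs were no smaller with it; with 0 or 1 counts in one genotype these fitted values depend on the prior count.

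**Figure D4:**
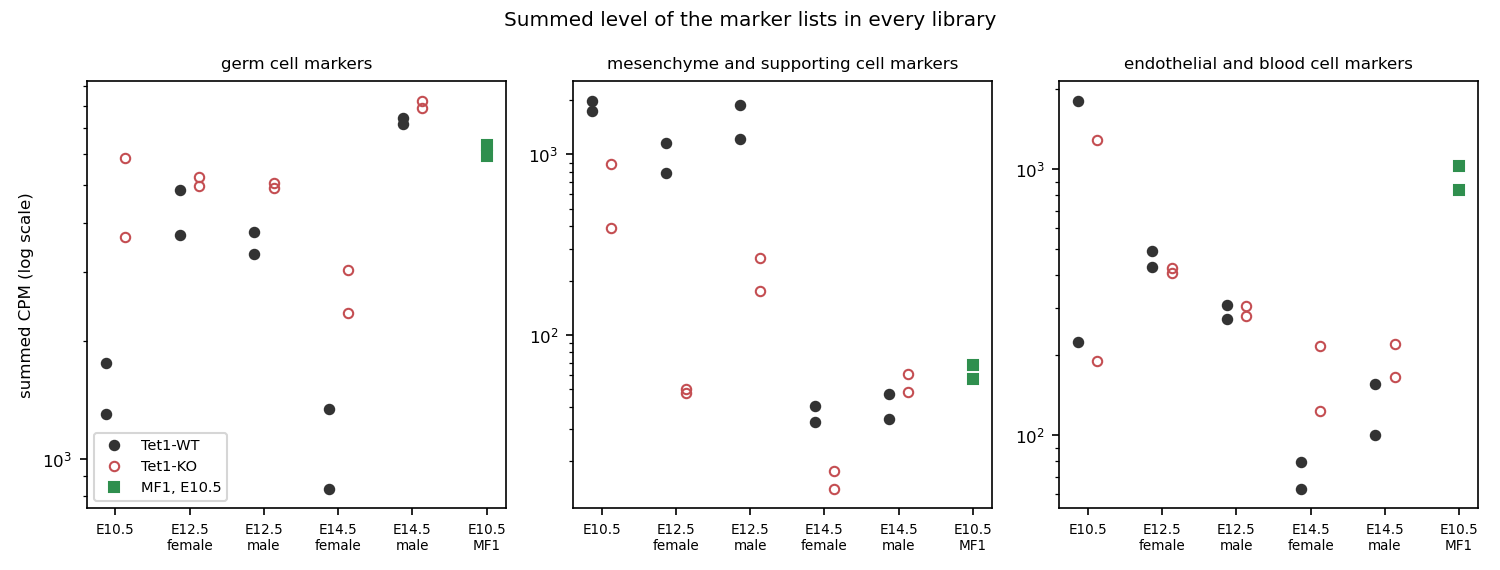
Summed CPM of the germ cell, mesenchyme and endothelial or blood marker lists in every library, each on a log axis of its own, by stage and sex on the x axis (filled for Tet1-WT, open for Tet1-KO, squares for MF1). The mesenchyme sum lies at 392 to 1980 CPM in the E10.5 libraries of the Tet1 cross and at 14 to 60.8 CPM in all E14.5 libraries.

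The fitted Tet1-KO effect on Fkbp6 had opposite signs at E10.5 and in E14.5 females. It was 0.91 at E10.5 and -0.73 in E14.5 females, and the difference of -1.64 (SE 0.32) was called (adjusted p = 0.00975; 5.12% of all genes were called for it), the only such call among the 6 genes. That contrast was chosen after the values were seen. The E14.5 female effect was not itself called by edgeR (adjusted p = 0.0625), and Tet1 counts did not separate the genotypes at E10.5. Germ cell markers had median log2 changes with Tet1-KO of 1.67 at E10.5 and 1.48 in E14.5 females. These markers also fell with stage in Tet1-WT females, 8 of 8 from E12.5 to E14.5. Their part in the Fkbp6 difference was not tested. For E14.5 males against E10.5 the difference for Fkbp6 was -1.11 (adjusted p = 0.0689) and 0 of 6 genes were called (2.75% of all genes), with 3 at an unadjusted p under 0.05. For E12.5 females it was -1.42 (adjusted p = 0.0807), with 0 of 6 called (0.296% of all genes) and 4 at an unadjusted p under 0.05, and for E12.5 males -1.09 (adjusted p = 0.164), with 0 of 6 called (0.239% of all genes) and 4 at an unadjusted p under 0.05. DESeq2 called Fkbp6 in all 3 of these (adjusted p = 0.0129, 0.00232 and 0.0266).

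The genes also rose along the stages in the libraries labelled Tet1-KO. From E10.5 to E12.5, 6 of 6 rose in Tet1-KO females (6.71% of all genes rose) and 6 of 6 in Tet1-KO males (6.23% of all genes rose), both against the same E10.5 libraries labelled Tet1-KO. Tex19.1 rose 6.87-fold and 5.54-fold in females and males, Fkbp6 6.06-fold and 4.49-fold, Slc25a31 14.9-fold and 16.3-fold, and Tex101 20.7-fold and 15.2-fold. Taf7l, with 0 counts at E10.5, rose at least 16.2-fold in females and at least 13.1-fold in males. Brdt went from 1 count in all to 181 counts in females and 194 in males, 155-fold (95% interval 27.5 to 6160) and 237-fold (42.1 to 9410) over the library totals. The male Tex101 call did not hold without E10.5 Tet1-KO replicate 2 (adjusted p = 0.0617). In fits of the compared groups alone 2 of the 6 female calls held (Tex19.1 and Fkbp6, adjusted p = 0.0244 and 0.036) and 1 of the 6 male calls (Tex19.1, adjusted p = 0.0167), with adjusted p 0.0502 to 0.326 for the others.

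The mesenchyme marker sum in these libraries was 392 and 883 CPM at E10.5, 47.8 and 50 CPM in E12.5 females and 267 and 175 CPM in E12.5 males, and 10 and 3 of its 16 markers were called lower in females and males. The 8 germ cell markers had median log2 changes of 0.06 in females and 0.01 in males. With the log2 mesenchyme sum as a term, an alternative added after the data were seen, 0 of the 6 female calls held (adjusted p 0.282 to 1) and 3 of the 6 male calls did, those of Tex19.1, Slc25a31 and Fkbp6 (log2 changes 2.38, 3.10 and 1.88, adjusted p = 0.00107, 0.00982 and 0.0179).

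From E12.5 to E14.5, 5 of 6 rose in Tet1-KO females (4.02% of all genes rose) and 4 of 6 in Tet1-KO males (5.50% of all genes rose). In females Taf7l rose 32.2-fold (adjusted p = 0.000206), Tex101 28.1-fold (adjusted p = 0.000309) and Slc25a31 5.45-fold (adjusted p = 0.00107). Brdt rose 5.25-fold (adjusted p = 0.0442) and Fkbp6 1.64-fold (adjusted p = 0.0488), and these last 2 calls were lost on leaving out any 1 of the 4 libraries (adjusted p 0.0585 to 0.287 for Brdt, 0.0664 to 0.279 for Fkbp6). In males Tex101 rose 5.12-fold (adjusted p = 0.0209), Taf7l 3.62-fold (adjusted p = 0.0489), Slc25a31 2.43-fold (adjusted p = 0.0415) and Fkbp6 2.10-fold (adjusted p = 0.00739). Leaving out any 1 library ended the male calls of Taf7l (adjusted p 0.0844 to 0.3) and Slc25a31 (adjusted p 0.103 to 0.239). Those of Tex101 and Fkbp6 ended without either E12.5 Tet1-KO library or E14.5 library b (adjusted p 0.131 to 0.176 for Tex101, 0.0596 to 0.0806 for Fkbp6). The mesenchyme marker sum fell from 47.8 and 50 to 14 and 17.6 CPM in Tet1-KO females and from 267 and 175 to 60.8 and 48.3 CPM in males. With its log2 as a term 1 of the 5 female calls held, that of Taf7l (log2 change 5.00, adjusted p = 0.0379), and 0 of the 4 male calls did (adjusted p 0.508 to 0.906).

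Ordered over the 10 groups of the Tet1 cross, E14.5 Tet1-WT females stood first for Tex101, Slc25a31, Taf7l, Fkbp6 and Brdt. Their lowest library lay above the highest of the next group for Tex101, Slc25a31, Taf7l and Fkbp6, and for Brdt it overlapped E14.5 Tet1-WT males. For Tex19.1 the first was E14.5 Tet1-KO males at 678 ± 27.4 CPM (SD, n = 2), then E14.5 Tet1-WT males at 601 ± 13.8, with the next groups overlapping down to E12.5 Tet1-KO males at 463 ± 9.12. The second group for Tex101, Slc25a31 and Taf7l was E14.5 Tet1-KO females, which for Tex101 and Slc25a31 overlapped E14.5 Tet1-WT males and for Taf7l did not. The E10.5 groups stood last for all 6 genes, in each case with all libraries below those of every later group, except that Taf7l in E10.5 Tet1-WT overlapped both E12.5 male groups.

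Tex101 and Taf7l followed each other most closely, with a Pearson correlation of 0.979 over the 10 group means on a log2 scale, and Tex19.1 and Taf7l least, at 0.523. These are descriptions over 10 groups that share stages, libraries and depth. Among 11460 genes compared, the closest to Brdt were Mael (0.994), Snx4 (0.986) and Tex11 (0.981). The closest to Fkbp6 were Mov10l1 (0.992), Tuba3b (0.990) and Tmtc1 (0.987), and to Slc25a31 Ccdc172 (0.993), Gpat2 (0.991) and Prr19 (0.991). Tex101 was closest to Cntd1 (0.982), Taf7l and Dnajc5g (both 0.979), and Taf7l to Usp40 and Cntd1 (both 0.984) and Dock3 (0.980). Tex19.1 was closest to Camk2b (0.974), Dus1l and Actr3b (both 0.971).

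A list of 25 other methylation-sensitive germline genes held many of the piRNA pathway and the meiotic chromosome axis. Of these 22 rose from E10.5 to E12.5 in Tet1-WT females and 22 in males (8.81% and 6.40% of all genes rose). The median log2 changes were 3.75 and 3.77, beside 3.68 and 3.07 for the 6 genes. From E12.5 to E14.5, 17 rose in each sex (11.3% of all genes rose in females and 4.92% in males). With Tet1-KO, 9 were higher and 1 lower at E10.5, beside 4.10% and 4.70% of all genes. Among the higher were Smc1b (29.2 against 8.69 CPM), Rnf17 (88.7 against 40.5 CPM) and Tex14 (57.3 against 24.0 CPM). In the same E10.5 libraries 7 of 8 germ cell markers were higher too. In E14.5 females 10 of the list were lower (3.29% of all genes were). The lower ones in E14.5 females included Sycp3, a core of the meiotic chromosome axis (392 against 1310 CPM, adjusted p = 0.00186), Smc1b, a meiotic cohesin (1560 against 4030 CPM), Rnf17 (364 against 912 CPM) and Tex15 (360 against 1420 CPM). The list's median log2 change with Tet1-KO was 0.93 at E10.5, -0.54 and -0.22 in females and males at E12.5, and -1.34 and -0.82 in females and males at E14.5.

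Paralogues and broadly expressed relatives of the 6 genes were examined in the same comparisons. The somatic ADP/ATP carriers Slc25a4 and Slc25a5 were higher in E14.5 Tet1-KO females, where Slc25a31 was lower: Slc25a4 was at 910 against 495 CPM (adjusted p = 0.00198) and Slc25a5 at 732 against 228 CPM (adjusted p = 0.000529). Slc25a4 was also higher with Tet1-KO at E12.5 in females (2150 against 1370 CPM, adjusted p = 0.0119) and males (2430 against 1670 CPM, adjusted p = 0.0447). Both carriers fell between E12.5 and E14.5 in Tet1-WT females, Slc25a4 from 1370 to 495 CPM and Slc25a5 from 1080 to 228 CPM, while Slc25a31 rose. For Slc25a5 the Tet1-KO effect at E14.5 in males minus that in females was -1.59 on the log2 scale (adjusted p = 0.00863).

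Brd3 and Brd2 are bromodomain relatives of Brdt. Brd3 was higher in E14.5 Tet1-KO females (233 against 152 CPM, adjusted p = 0.0217) and Brd2 was not called in any comparison. Taf7 was called in no Tet1-KO comparison, and rose in Tet1-WT males from E12.5 to E14.5 (166 to 567 CPM, adjusted p = 0.000288). Taf7l2 rose in Tet1-WT females between the same stages from 1.02 CPM (log2 change 4.22, adjusted p = 0.0475). Tex19.2, the paralogue of Tex19.1, rose in Tet1-WT at both steps in both sexes, from 2.76 CPM at E10.5 to 25.9 and 55.3 CPM in females and to 16.2 and 101 CPM in males, and was called in no Tet1-KO comparison. Fkbp4 and Fkbp5, relatives of Fkbp6, were called in no Tet1-KO comparison either, and Ly6k, a relative of Tex101, was called in none at all.

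Among 10 genes whose products work with those of the 6, 9 passed the filter on low counts (Adam3 did not). With Tet1-KO 3 were higher at E10.5 (4.10% of all genes were). These were Piwil2 (28.7 against 10.7 CPM, adjusted p = 0.0301), Hsp90aa1 (2720 against 1880 CPM, adjusted p = 0.0266) and Taf4b (12.4 against 4.17 CPM, adjusted p = 0.0423). Hsp90aa1 was also the 1 partner higher in E12.5 Tet1-KO males (3560 against 2180 CPM, adjusted p = 0.0206). Taf4b, a germ cell subunit of the same transcription factor as Taf7l, was the 1 partner lower in E14.5 Tet1-KO females (30.7 against 89.3 CPM, adjusted p = 0.0441).

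The wild-type E10.5 libraries of the MF1 cross had higher values of Tex19.1 and Fkbp6 than the E10.5 Tet1-WT libraries, without a call by edgeR. In a fit of these 4 libraries, in which the cross, the RNA kit, the cell number and the depth all differed together, edgeR called 0 of the 6 genes (0.606% of all genes were called), with 2 at an unadjusted p under 0.05 and the same 2 called by DESeq2. Tex19.1 was at 191 and 150 CPM in MF1 against a mean of 40.0 CPM in Tet1-WT (log2 difference 2.09, SE 0.34, adjusted p = 0.0689; DESeq2 adjusted p = 2.35e-06). Fkbp6 was at 178 and 182 CPM against a mean of 36.2 CPM (log2 difference 2.31, SE 0.38, adjusted p = 0.0695; DESeq2 adjusted p = 3.31e-06). For both genes the MF1 libraries lay above the Tet1-WT libraries.

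The other four genes were low in both crosses. In the MF1 libraries Tex101 was at 7.86 and 8.19 CPM, Slc25a31 at 7.49 and 11 CPM, Taf7l at 0.349 and 4.68 CPM and Brdt at 0 and 3.55 CPM. The mesenchyme sum was 57 and 67.7 CPM in MF1 against 1730 and 1980 CPM in Tet1-WT, and the germ cell marker sum 5950 and 6340 CPM against 1760 and 1300 CPM; their part in the differences was not tested.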

How the data were processed

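The authors deposited raw counts per Ensembl gene in 2 tables, 1 for 20 libraries of the Tet1 cross and 1 for 2 MF1 libraries, per the labels. Per the submitters' processing notes Trimmomatic, TopHat2 2.0.2, Bowtie 0.12.8 and HTSeq 0.5.3p9 were used, on the mm9 build. No source used here gives the strand setting; of the 6 genes, Brdt alone is overlapped by another gene, on the opposite strand and without shared exon bases. Amplified reads carry no molecular identifiers, so intervals and bounds cover counting error only. In the E12.5 and E14.5 Tet1-KO groups the 2 columns of a group share 1 name, so those libraries are called a and b.

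Tests were run in edgeR 4.0.16 (R 4.3.3). Genes passing filterByExpr (minimum count 10, minimum total 15) were kept, 17567 for the Tet1 cross. After TMM scaling, 10 groups were fitted together with the robust quasi-likelihood method (common biological coefficient of variation 0.46, 10 residual degrees of freedom). MF1 and E10.5 Tet1-WT were fitted apart (15500 genes, coefficient 0.78, 2 residual degrees of freedom). P-values were adjusted by Benjamini-Hochberg over all genes tested, and calls made at 0.05. Log2 changes use a prior count of 0.125; a group at 0 was given 3 counts per library for a bound. RPKM uses GENCODE M21 exon lengths. The alternatives were DESeq2 1.42.0, its size factors, no filter, the compared groups alone, a replicate block, the mesenchyme sum as a covariate, and leaving out each library. The script was tested on simulated data. Likeness of genes is Pearson correlation over 10 group means of log2 CPM (prior count 2), among genes reaching 5 CPM in a group mean.

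Named genes were the 6 members, Tet1, the relatives on the list of counterparts (apart from 1 that is not reported here), from other lists at most 4 with the smallest p, and the 3 genes most like each member. The members and lists were chosen with earlier results of these data known. Figures were drawn with matplotlib.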

Additional observations from a re-analysis of the deposited data

Results flagged for a closer look

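For Fkbp6 the Tet1-KO effect in E14.5 females and at E10.5 had opposite signs, and the test of that difference gave -1.64 on the log2 scale (SE 0.32, edgeR adjusted p = 0.00975). Both Tet1-KO libraries lay above both Tet1-WT libraries at E10.5 (78.1 and 58 against 27.4 and 44.9 CPM) and below them in E14.5 females (745 and 609 against 1154 and 1087 CPM). The mesenchyme marker sum differed between genotypes at E10.5 (1730 and 1980 CPM in Tet1-WT, 392 and 883 CPM in Tet1-KO), and with its log2 as a term the difference was -1.53 (adjusted p = 0.0183). Germ cell markers were higher with Tet1-KO in both comparisons, with median log2 changes of 1.67 at E10.5 and 1.48 in E14.5 females. The same markers fell with stage in Tet1-WT females, 8 of 8 from E12.5 to E14.5. Their part in the Fkbp6 difference was not tested. The contrast was chosen after the values were seen.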

How the results depend on the processing

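Of the 56 calls on the 6 genes, all kept their direction and stayed past the threshold with DESeq2, with DESeq2's size factors in edgeR, and with no filter on low counts. Without the filter many adjusted p were far smaller, so a call that held there passed a weaker check. Leaving out each library of a comparison gave 224 values, of which 159 stayed past the threshold, 65 did not and 0 changed sign. Fits of the compared groups alone kept 40 and lost 14. The other 2, the Tet1-KO calls of Taf7l and Brdt at E10.5, were not tested there, since neither gene passed the filter on low counts. The mesenchyme sum as a covariate was run for the 7 Tet1-KO calls and the 21 stage calls of each genotype (Tet1-KO stages added after the data were seen): 15 stayed, 24 were lost and 10 changed sign without a call. The number of Tet1-KO calls, 7, was 17 with no filter, 4 in the compared groups alone and 2 with the covariate, and 4 to 7 without single libraries (4 without E14.5 female Tet1-WT replicate 1 or Tet1-KO b). Tet1-WT stage calls, 21, were 9 with the covariate and 16 to 22 without single libraries. Tet1-KO stage calls, 21, were 13 in the compared groups alone, 4 with the covariate and 15 to 21 without single libraries. Sex calls, 7, were 11 with no filter and 5 to 8 without single libraries. The 0 MF1 calls became 2 with DESeq2, 2 with no filter and 1 with the replicate block, and ranged from 0 to 2 without single libraries. The cause was not tested. Where a fit leaves 1 library in a group, that library is assumed to vary like the others.

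The replicate block could be fitted on the 12 numbered libraries, where Tet1-WT stage calls were 16 with the block and 16 without it (an alternative added after the data were seen). Of the 4 Tet1-KO calls at E10.5, 1 held with the block (adjusted p = 0.0736 for Fkbp6, 0.0688 for Taf7l and 0.108 for Brdt) and 2 without it (0.0801 for Fkbp6, 0.0842 for Brdt). The Fkbp6 sex call in E14.5 Tet1-WT was lost with the block (adjusted p = 0.104) and without it (0.123). The difference of replicate 2 minus replicate 1 was correlated over genes between the 6 numbered groups. Over the 15 pairs of groups the correlations ran from -0.03 to 0.05 and 0 were above 0.1. No link by replicate number was seen this way, which does not show that same-numbered samples were unrelated.

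Single results changed sign as follows. Male minus female in E12.5 Tet1-WT became 0.01 for Tex19.1 and 0.01 for Brdt with DESeq2, and 0.01 for Tex19.1 and 0 for Brdt with its size factors. In E14.5 Tet1-WT Brdt became 0.02 in the 2 groups alone and 0.01 with the replicate block, and in MF1 against Tet1-WT Brdt became -1.09 with the block. With the covariate the change from E12.5 to E14.5 in Tet1-WT females was -1 for Tex101, -0.53 for Slc25a31, -0.04 for Fkbp6 and -2.26 for Brdt, and in males -4.19 for Tex101, -2.31 for Slc25a31 and -2.92 for Brdt. In Tet1-KO the covariate gave -0.43 for Tex101 from E10.5 to E12.5 in females, and -0.49 for Tex101, -0.28 for Slc25a31 and -1.07 for Brdt from E12.5 to E14.5 in males.

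Leaving out single libraries gave these ranges where a sign changed, none of them a call in the full fit. For Tet1-KO against Tet1-WT they were -1.22 to 0.39 for Slc25a31 at E10.5, -1.08 to 0.22 for Taf7l in E12.5 females, -0.25 to 1.06 for Taf7l in E12.5 males and -0.4 to 0 for Fkbp6 in E14.5 males. For stage they were -0.33 to 1.92 for Taf7l (Tet1-WT males, E10.5 to E12.5) and -0.5 to 0.02 for Tex19.1 (Tet1-KO females, E12.5 to E14.5). For male minus female they were -0.16 to 0.12 for Tex19.1, -0.73 to 0.27 for Slc25a31 and -0.25 to 0.25 for Brdt in E12.5 Tet1-WT, -0.09 to 0.31 for Slc25a31 and -1.03 to 0.17 for Taf7l in E12.5 Tet1-KO, -0.26 to 0.14 for Brdt in E14.5 Tet1-WT and -0.27 to 0.01 for Fkbp6 in E14.5 Tet1-KO. For MF1 they were -1.92 to 2.44 for Taf7l and -8.3 to 4.97 for Brdt, and for the E14.5 Tet1-KO effect in males minus females -0.04 to 0.72 for Taf7l. The Fkbp6 difference of -1.64 ran from -2.03 to -1.24 and was called each time.

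Precision is limited by 2 libraries per group and, for Taf7l and Brdt at E10.5, by counts near 0.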
